A study of Mus musculus with 6 samples.

Results

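The genes described here are the ubiquitin-conjugating (E2) enzymes that carry a Ube2 symbol in mouse. They were taken from the count tables by symbol, as every row whose name starts with Ube2 and a lower-case letter, which gave 37 of 23420 genes. Of these, 32 had enough reads to be tested. The other 5 (Ube2d2b, Ube2dnl1, Ube2dnl2, Ube2ql1 and Ube2u) had no read in any library. Ube2cbp is matched by the symbol but is a protein that binds Ube2c and not an E2. E2 genes with other symbols, such as Cdc34, are given further on as related genes. RNA was sequenced from 3 libraries of DP-DSCs and 3 of TP-DSCs, which are dysplastic stem cell populations sorted by flow cytometry from Meta4, a line of mouse dysplastic epithelial organoids. As known of the study, though the labels do not say so, Meta4 was grown from the dysplastic stomach of mice with an engineered change in chief cells, DP cells carry CD133 and CD166, and TP cells carry CD44v6 as well. Both groups come from this line and share its background, so no comparison with another line or with untransformed cells was possible. The labels call the samples independent without saying whether they were separate cultures, so p-values measure the spread between these samples only, which may be technical.

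Ubiquitin is a small protein that marks other proteins for degradation or changes what they do. An E1 enzyme activates it, an E2 enzyme carries it on a cysteine, and an E3 ligase brings the loaded E2 to the substrate. The E2 largely decides which kind of ubiquitin chain is built. Ube2c and Ube2s serve the anaphase-promoting complex (APC/C), the ligase that destroys cyclin B and securin at the end of mitosis. Ube2c starts the chains and Ube2s extends them. Ube2t works with the ligase Fancl in the Fanconi anemia pathway of DNA crosslink repair. The other members act in DNA damage tolerance, in degradation at the endoplasmic reticulum (ER), with cullin ligases, or carry ubiquitin-like proteins such as NEDD8 and ISG15.

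Reads assigned to genes ranged from 17015581 to 32671039 per library. Genes with at least 1 read numbered 12504 to 14434 in DP-DSCs and 10571 to 10982 in TP-DSCs. Library names carry the number 3840 (replicate 1 of each group) or 4140 (replicates 2 and 3), whose meaning the labels do not give. The 5 epithelial markers were abundant everywhere, with sums of 7984 to 9758 CPM (counts of a gene per 1000000 gene reads of its library) in DP-DSCs and 7447 to 9029 CPM in TP-DSCs. Of 6 leukocyte markers 4 had reads, with sums of 5.14 to 47.6 CPM in DP-DSC libraries and 0 to 17.3 CPM in TP-DSCs, nearly all from Cd68. Cd3e was at 0. Of 6 fibroblast markers 2 had reads (0.704 to 3.19 and 0 to 2.90 CPM), with Col1a2, Col3a1, Dcn and Lum at 0. Of 4 endothelial markers 3 had reads (at most 2.44 CPM in DP-DSC libraries and 0 in TP-DSCs), with Pecam1 at 0. Their part in the results was not tested.

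The promoters of Ube2c, Ube2s and Ube2t are shown first because these 3 genes are set apart here as the mitotic members. The letters TTTGAA (or TTCAAA on the other strand) are the core of the cell cycle homology region found at many genes of mitosis, and TTCGAA is a variant of it. CCAAT (or ATTGG) is the box bound by the factor NF-Y. Capitals mark these letters. Each run is 5′ to 3′ along the gene's strand, from 250 bases before to 50 bases after the start site in RefSeq (GRCm38.p6).
Ube2c, chr2:164769679-164769978, plus strand: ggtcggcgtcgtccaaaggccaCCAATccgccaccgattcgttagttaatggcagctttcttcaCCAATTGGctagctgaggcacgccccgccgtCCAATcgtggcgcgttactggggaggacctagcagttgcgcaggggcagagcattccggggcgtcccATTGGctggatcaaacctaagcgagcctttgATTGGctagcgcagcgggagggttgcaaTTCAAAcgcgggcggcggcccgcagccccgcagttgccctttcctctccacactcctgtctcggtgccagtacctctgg
Ube2s, chr7:4812291-4812590, minus strand: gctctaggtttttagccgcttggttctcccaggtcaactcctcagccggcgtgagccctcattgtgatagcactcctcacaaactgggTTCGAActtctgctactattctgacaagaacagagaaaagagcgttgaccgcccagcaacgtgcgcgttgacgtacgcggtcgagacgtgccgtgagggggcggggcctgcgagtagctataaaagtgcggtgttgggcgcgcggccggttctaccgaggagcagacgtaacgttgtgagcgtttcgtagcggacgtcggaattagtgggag
Ube2t, chr1:134962315-134962614, plus strand: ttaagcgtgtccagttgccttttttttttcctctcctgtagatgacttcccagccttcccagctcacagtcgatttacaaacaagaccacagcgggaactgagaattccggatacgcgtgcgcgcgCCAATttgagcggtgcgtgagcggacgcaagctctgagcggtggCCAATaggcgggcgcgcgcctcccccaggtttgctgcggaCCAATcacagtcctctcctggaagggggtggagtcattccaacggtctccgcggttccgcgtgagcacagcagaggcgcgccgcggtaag

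The Ube2c promoter held CCAAT 6 times, counting both strands and a pair that overlaps as CCAATTGG, and TTCAAA 1 time, at position -29 from the start site. The Ube2t promoter held CCAAT 3 times and neither cell cycle element. The Ube2s promoter held no CCAAT and TTCGAA 1 time, further from the start site at position -162. In the GENCODE annotation the Ube2s gene begins further upstream, at 4812590 on the minus strand. The stretch printed for Ube2s thus lies within that gene, and its positions hold for the RefSeq start only. Among all 32851 promoters of the table, 37.4% held CCAAT on either strand, 17.9% held TTTGAA and 1.56% held TTCGAA. Promoters were found for 30 of the 37 members. Of their 41 promoters, 9 held CCAAT, 4 held TTTGAA (those of Ube2c, Ube2d2b, Ube2f and Ube2z) and 1 held TTCGAA, that of Ube2s. A match is a description of these letters and does not show that a factor binds there.

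Among the members, Ube2c stood closest to a difference between the groups. Its level was 39.8, 94.3 and 44.8 CPM in replicates 1, 2 and 3 of DP-DSCs. In replicates 1, 2 and 3 of TP-DSCs it was 84.2, 130.2 and 106 CPM. All TP-DSC libraries lay above DP-DSCs replicates 1 and 3, but DP-DSCs replicate 2 lay above TP-DSCs replicate 1, so the groups overlapped. The mean was 59.6 ± 30.1 CPM (SD, n = 3) for DP-DSCs and 107 ± 23.0 CPM (SD, n = 3) for TP-DSCs. This gave a log2 fold change of 0.84 ± 0.33 (SE). In edgeR's quasi-likelihood test Ube2c did not pass, with an adjusted p of 0.688 against a threshold of 0.05 and an unadjusted p of 0.0360. Without DP-DSCs replicate 2 the log2 fold change was 1.26 (edgeR adjusted p = 0.121), the highest of all alternatives. The lowest was 0.62, without DP-DSCs replicate 1. Ube2c was the only member with an unadjusted p under 0.05, or 1 of 32 where 6.1% of all genes tested had one. Of all genes, 1.43% had one with a higher level in TP-DSCs, as Ube2c did, and 4.67% with a lower level. The gene lies on chromosome 2 of GRCm38 from 164769898 to 164778822.

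Ube2s, which extends the chains that Ube2c starts, was at similar mean levels in both groups. Its level was 61.8, 152 and 117 CPM in replicates 1, 2 and 3 of DP-DSCs and 88.9, 90.7 and 127 CPM in replicates 1, 2 and 3 of TP-DSCs. The TP-DSC values lay inside the range of the DP-DSC values, whose lowest and highest libraries were replicates 1 and 2. The means were 110.3 ± 45.5 CPM and 102 ± 21.4 CPM, with a log2 fold change of -0.11 ± 0.31 (SE; edgeR adjusted p = 0.999). Without DP-DSCs replicate 2 the log2 fold change was 0.13. Ube2s lies on chromosome 7 from 4794546 to 4812590.

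Ube2t was scarce and scattered. It stood at 7.33, 2.51 and 12 CPM in replicates 1, 2 and 3 of DP-DSCs and at 7.29, 13.5 and 20.3 CPM in replicates 1, 2 and 3 of TP-DSCs. The libraries of the number 3840 were nearly equal (7.33 and 7.29 CPM), and the 4140 libraries of TP-DSCs lay above those of DP-DSCs. The log2 fold change was 0.84 ± 0.86 (SE), as large as that of Ube2c with a far wider error (edgeR adjusted p = 0.999). It ranged from 0.42 without DP-DSCs replicate 2 to 1.40 without DP-DSCs replicate 3. Ube2t lies on chromosome 1 from 134962565 to 134974162.

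**Figure D1:**
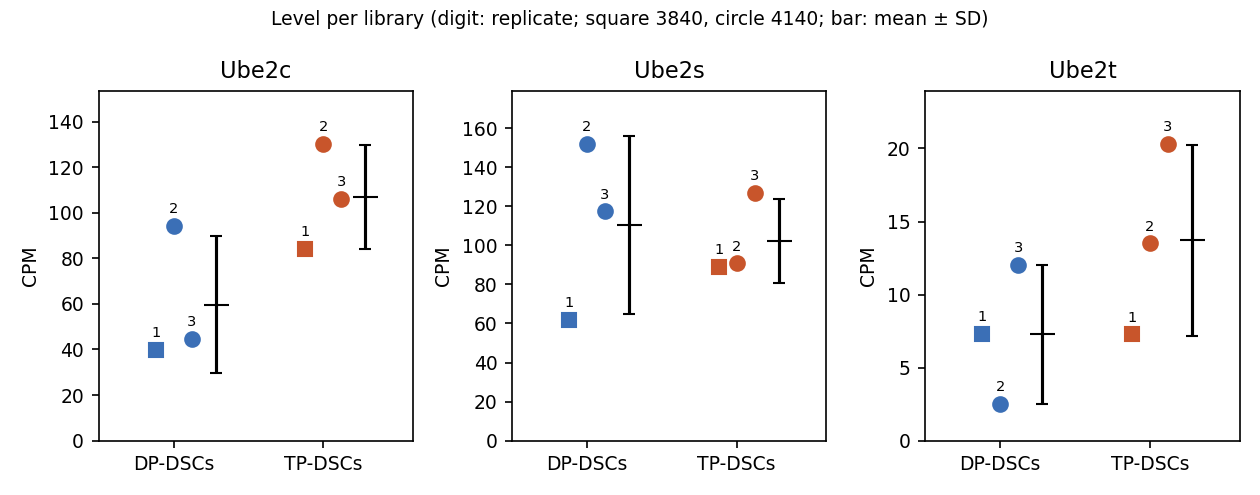
Level of Ube2c, Ube2s and Ube2t in CPM (vertical axis, from 0) in each library of DP-DSCs and TP-DSCs. Points are libraries with their replicate digit, squares carry the number 3840 and circles 4140, and bars give the mean ± SD. The groups overlap for all 3 genes, with the Ube2c mean at 59.6 CPM in DP-DSC libraries and 107 CPM in TP-DSCs.

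The levels were set beside 8 markers of cycling cells (Mki67, Top2a, Cdk1, Ccnb1, Birc5, Tpx2, Cenpe and Nusap1), a comparison chosen after the values were seen. The summed level of these markers was 385, 712 and 509 CPM in replicates 1, 2 and 3 of DP-DSCs and 713, 1310.4 and 1133 CPM in replicates 1, 2 and 3 of TP-DSCs. The groups did not overlap, although DP-DSCs replicate 2 and TP-DSCs replicate 1 were nearly equal. Of the markers, Mki67, Cenpe and Nusap1 were higher in every TP-DSC library than in every DP-DSC library, and the rest overlapped. That is 3 of 8, where 3.87% of all genes tested were so placed. Mki67 stood at 136 CPM in DP-DSCs replicate 2 and 244 CPM in TP-DSCs replicate 1, so the order of these 2 libraries in the sum rested on Mki67. Ube2c amounted to 10.3, 13.2 and 8.81% of that sum in replicates 1, 2 and 3 of DP-DSCs. In TP-DSCs it amounted to 11.8, 9.93 and 9.36%, within the DP-DSC range. Relative to these markers the Ube2c level did not separate the groups. The part of the markers in the Ube2c difference was not tested.

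Ube2s was lower relative to the same sum in TP-DSCs. It amounted to 16.0, 21.3 and 23.1% in replicates 1, 2 and 3 of DP-DSCs and to 12.5, 6.92 and 11.2% in replicates 1, 2 and 3 of TP-DSCs. Every TP-DSC library lay below every DP-DSC library. The Ube2s level in CPM overlapped between the groups while the marker sum lay apart, so this share also carries the difference in the sum. One of the markers, Mki67, had the smallest unadjusted edgeR p of all genes tested (0.000246, edgeR adjusted p = 0.121). DESeq2, a second test, called the markers Mki67 and Cenpe at an adjusted p under 0.05. They were 2 of the 7 genes that it called higher in TP-DSCs. Ube2t amounted to 0.353 to 2.36% in DP-DSCs and 1.02 to 1.79% in TP-DSCs, which overlapped. The ratio of Ube2c to Ube2s within a library, which no scaling of libraries affects, was 0.644, 0.621 and 0.382 in DP-DSCs. It was 0.948, 1.44 and 0.836 in TP-DSCs, again without overlap. How often the shares of other genes, or the ratios of other gene pairs, lie apart in this way was not counted. With 3 libraries against 3, no exact permutation test can give a two-sided p below 0.1, and none is given for these values because they were chosen after seeing the levels.

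**Figure D2:**
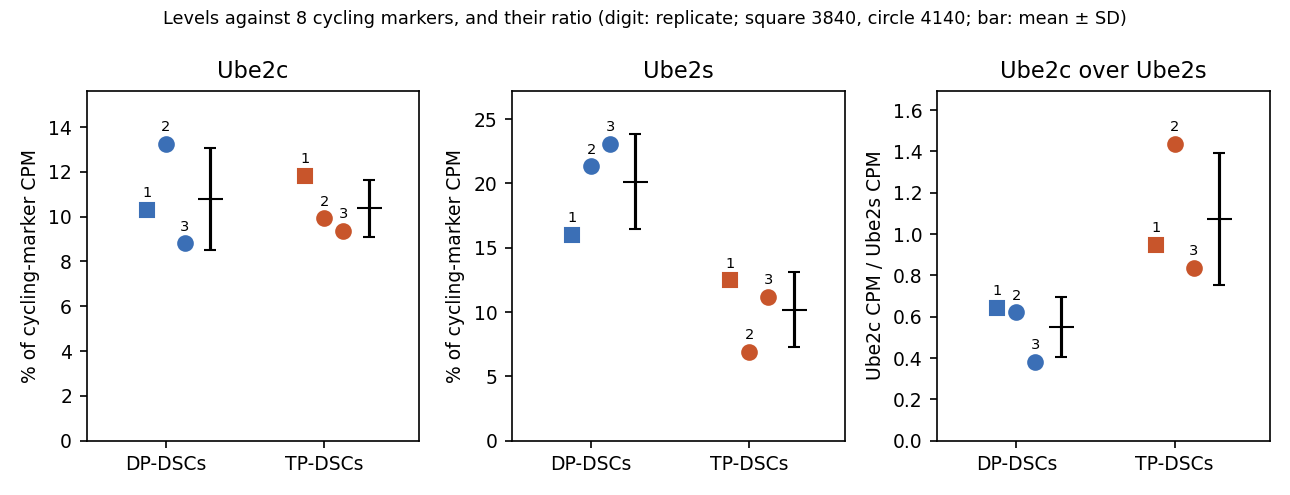
Ube2c and Ube2s as a percentage of the summed CPM of 8 cycling markers, and the ratio of Ube2c CPM to Ube2s CPM (vertical axes, from 0), by library. Digits are replicates, squares carry the number 3840 and circles 4140, and bars give the mean ± SD. The groups overlap for Ube2c and lie apart for Ube2s and for the ratio.

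Over all 32 tested members, edgeR called 0 at a false discovery rate of 0.05, against 0% of all 11925 genes tested. DESeq2 also called 0 members, where it called 0.78% of all genes (0.0587% higher and 0.721% lower in TP-DSCs), or 1.76% with its own filter. Limma-voom called 0 members and 0% of genes, while 8.06% of genes had an unadjusted p under 0.05 there. Of the members, 10 had a log2 fold change above 0 and 22 below, a share of 31.25% above where 48.2% of all genes tested were above. The median was -0.13 for the members and -0.02 for all genes. Ube2c, Ube2s and Ube2t had a median of 0.84. For the other 29 tested members the median was -0.18, and 8 lay above and 21 below 0, a difference in medians of 1.02. This difference rested on Ube2c and Ube2t, which ranked 2 and 1 among the 32 members, while Ube2s ranked 15. It was 0.49 without DP-DSCs replicate 2 and 0.64 without TP-DSCs replicate 3. By library, the median deviation of the 3 genes minus that of the others was -0.55, 0.05 and 0.06 in replicates 1, 2 and 3 of DP-DSCs. It was -0.08, 0.63 and 0.38 in replicates 1, 2 and 3 of TP-DSCs, so TP-DSCs replicate 1 lay among the DP-DSC libraries.

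**Figure D3:**
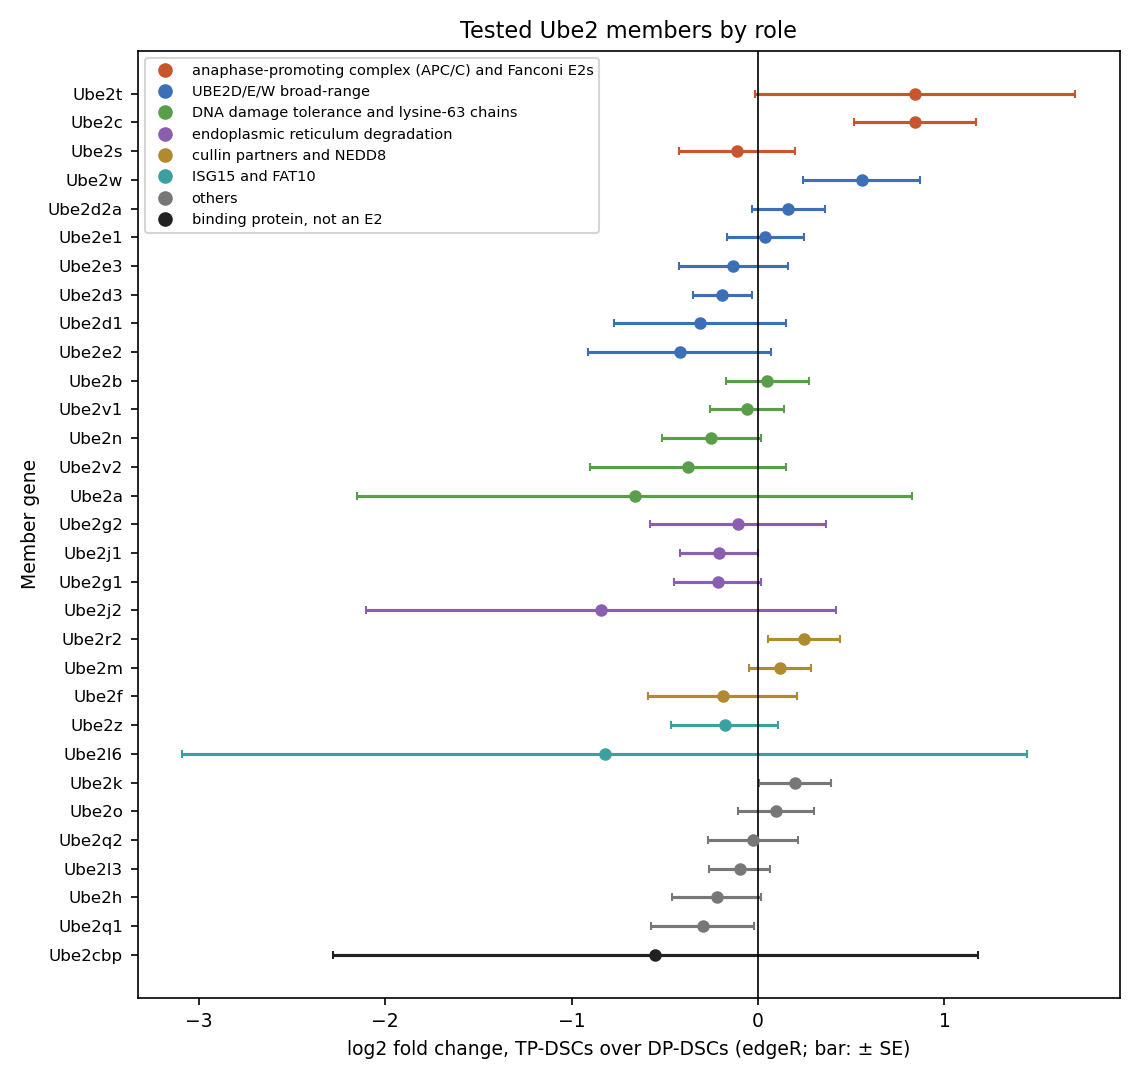
Log2 fold change of TP-DSCs over DP-DSCs (horizontal axis, edgeR) for 31 of the 32 tested members, coloured by role, with bars of ± 1 SE. Ube2t and Ube2c lie furthest to the right at 0.84, and the 4 widest bars belong to Ube2l6, Ube2cbp, Ube2a and Ube2j2, which have few or no reads in a TP-DSC library.

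The Ube2d, Ube2e and Ube2w enzymes work with many ligases. Ube2d3 was the most abundant member by CPM and the only member whose groups did not overlap. It stood at 256, 296 and 286 CPM in replicates 1, 2 and 3 of DP-DSCs and at 246, 239 and 255 CPM in replicates 1, 2 and 3 of TP-DSCs. The lowest DP-DSC and highest TP-DSC libraries were less than 1 CPM apart, and the log2 fold change was -0.19 ± 0.16 (SE; edgeR adjusted p = 0.999). It was 1 of the 32 members with every TP-DSC library below every DP-DSC library, where 8.56% of all genes tested were so placed. None had every TP-DSC library above, where 3.87% of genes had. Reads in all 6 libraries were found for 29 of the 32 members and 79.8% of genes tested. Among such genes, 5.1% had every TP-DSC library below and 4.82% every TP-DSC library above. Ube2w, which attaches ubiquitin to the amino terminus of proteins, stood at 29.2, 36.2 and 41.5 CPM in DP-DSC libraries and 54.3, 67.4 and 36.6 CPM in TP-DSCs. TP-DSCs replicates 1 and 2 lay above all DP-DSC libraries, while replicate 3 lay among them, and the log2 fold change was 0.56 ± 0.31.

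The remaining members of this class did not separate the groups. Ube2d2a stood at 91.7, 149.7 and 117 CPM in DP-DSC libraries and 121, 130.1 and 151 CPM in TP-DSCs. Ube2d1 was scarcer, at 21.5 to 38.8 CPM and 14.3 to 38.2 CPM, with a log2 fold change of -0.31, or -0.75 without TP-DSCs replicate 3. Ube2e1 ranged from 55.0 to 85.5 CPM in DP-DSC libraries and 65.5 to 77.2 CPM in TP-DSCs. Ube2e2 ranged from 13.9 to 28.5 and 15.1 to 20.9 CPM, and Ube2e3 from 48.9 to 76.5 and 40.7 to 83.6 CPM. Of the 7 tested genes of this class 3 had log2 fold changes above 0 and 4 below.

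Ube2a and Ube2b are a pair of close paralogs that ubiquitinate PCNA and histone H2B with Rad18 and other ligases. Ube2b stood at 103, 109 and 123 CPM in DP-DSC libraries and 124, 89.9 and 134 CPM in TP-DSCs. Ube2n builds signalling chains together with its inactive partners Ube2v1 and Ube2v2. It stood at 66.4, 115 and 106 CPM in DP-DSC libraries and 56.0, 89.4 and 99.1 CPM in TP-DSCs, with the lowest library of each group carrying the number 3840. Ube2v1 ranged from 73.5 to 87.9 CPM in DP-DSC libraries and from 67.5 to 92.4 CPM in TP-DSCs. Ube2v2 ranged from 21.4 to 30.0 CPM in DP-DSC libraries and stood at 30.8, 12 and 13.9 CPM in replicates 1, 2 and 3 of TP-DSCs. Its 4140 libraries of TP-DSCs were the lowest, while its 3840 library was the highest of all. The fold change of Ube2v2 was -0.38 ± 0.53 (log2, SE). It was -1.03 without TP-DSCs replicate 1 (edgeR adjusted p = 0.337) and -1.11 in the 4140 libraries alone.

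The 4 E2s of ER-associated degradation all had log2 fold changes below 0, from -0.84 to -0.11, and none passed. Ube2j1, anchored in the ER membrane, stood at 63.6, 85.9 and 82.5 CPM in DP-DSC libraries and 55.0, 67.6 and 80.9 CPM in TP-DSCs. Ube2g1 stood at 79.2, 101 and 96.9 CPM in DP-DSC libraries and 73.6, 62.7 and 105 CPM in TP-DSCs. Both ranges overlapped across the groups. Ube2g2, another E2 of ER-associated degradation, was even in DP-DSCs (53.9, 68.0 and 59.1 CPM) and uneven in TP-DSCs (46.5, 99.8 and 23.8 CPM). Its highest and its lowest library were both TP-DSCs of the number 4140.

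Among partners of cullin ligases, Ube2r2 stood at 103, 114 and 112 CPM in DP-DSC libraries and 127, 157 and 110.2 CPM in TP-DSCs. Its log2 fold change was 0.25 ± 0.19. Ube2m and Ube2f carry NEDD8, which activates cullins. Ube2m was among the steadiest members, at 127, 143 and 152 CPM in DP-DSC libraries and 157, 158 and 148 CPM in TP-DSCs. Ube2f ranged from 33.0 to 68.3 CPM in DP-DSC libraries and 24.2 to 64.1 CPM in TP-DSCs. Its highest library in each group was replicate 2.

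Ube2l6 is the E2 for ISG15, and Ube2z takes ubiquitin and FAT10 loaded by Uba6. Ube2z ranged from 99.6 to 142 CPM and from 73.1 to 154 CPM. Ube2l6 was the scarcest tested member and is described with the uneven members. Among the rest, Ube2l3, which serves Parkin and HECT ligases, stood at 161, 220.0 and 183 CPM in DP-DSC libraries and 163, 190.5 and 178 CPM in TP-DSCs. Ube2k stood at 105, 144 and 110.2 CPM and at 112, 135 and 171 CPM. Ube2q1 stood at 90.5, 113 and 111 CPM and at 105, 58.0 and 91.9 CPM, the lowest of its libraries being TP-DSCs replicate 2. Ube2h ranged from 83.9 to 98.5 and 59.7 to 86.4 CPM, and Ube2o from 62.2 to 80.6 and 66.5 to 88.3 CPM. Ube2q2 ranged from 53.2 to 67.1 and 51.0 to 70.0 CPM. None of these groups of libraries lay apart.

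Ube2a, Ube2j2, Ube2cbp and Ube2l6 had few or no reads in single TP-DSC libraries. Ube2a had 1052, 1181 and 1003 reads in DP-DSCs and 1086, 358 and 0 reads in TP-DSCs. In CPM this was 32.3, 36.1 and 37.1 against 43.5, 21.0 and 0. The 0 of TP-DSCs replicate 3 came from a library of 31068454 gene reads, where a count of 0 allows up to 0.0966 CPM (3 reads, counting error only). In DP-DSCs Ube2a was one of the steadiest members, with a coefficient of variation of 7.27%. Ube2a lies on the X chromosome from 36873900 to 36884222.

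Ube2j2, an ER-membrane E2, had 380, 643 and 369 reads in DP-DSCs and 163, 315 and 6 reads in TP-DSCs, or 0.193 CPM in TP-DSCs replicate 3. Ube2cbp stood at 4.79, 17.0 and 6.88 CPM in DP-DSC libraries and 5.93, 13.4 and 0 CPM in TP-DSCs. Ube2l6 stood at 2.18, 2.94 and 2.74 CPM in DP-DSC libraries and 0, 4.64 and 0 CPM in TP-DSCs. The library that held Ube2l6, TP-DSCs replicate 2, was the highest of all 6. The log2 fold changes of these genes were -0.66 ± 1.49 for Ube2a, -0.84 ± 1.26 for Ube2j2, -0.55 ± 1.73 for Ube2cbp and -0.82 ± 2.27 for Ube2l6, with an edgeR adjusted p of 0.999 each. Without TP-DSCs replicate 3 they were -0.07, -0.27, 0.04 and -0.24, in the same order. Without TP-DSCs replicate 2, Ube2l6 had no read left in TP-DSCs, Ube2j2 stood at -2.05 and Ube2cbp at -1.55. Without TP-DSCs replicate 1, Ube2a stood at -1.83. In limma-voom the same fold changes were -4.57 for Ube2a, -2.79 for Ube2j2, -3.62 for Ube2cbp and -4.63 for Ube2l6, with adjusted p from 0.642 to 0.681. The sizes for these genes thus differ widely between the tests. No member had reads in one group and none in any library of the other.

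Genes without reads in 1 library were more frequent in TP-DSCs over the whole table, and the part of this in the values of these members was not tested. Of genes with a mean of 20 to 50 CPM over the other 5 libraries, 0.44, 1.32 and 1.25% lacked reads in replicates 1, 2 and 3 of TP-DSCs. In DP-DSCs these shares were 0, 0.063 and 0.0317%. Ube2a in TP-DSCs replicate 3 is 1 of 40 such genes among 3193. For genes of 5 to 10 CPM, the range of Ube2cbp, the shares were 18.7, 30.6 and 27% in TP-DSCs and 0.107 to 0.971% in DP-DSCs. For 2 to 5 CPM, the range of Ube2l6, they were 46.4, 54.7 and 54.7% in TP-DSCs and 0.703 to 10.9% in DP-DSCs. In bulk RNA, fewer cells that express a gene and less RNA per cell cannot be told apart. The coefficient of variation of the tested members had a median of 17.4% among DP-DSCs and 21.5% among TP-DSCs. Over all tested genes it was 22.2 and 39.2%. It was higher in TP-DSCs than in DP-DSCs for 22 of the 32 members (68.8%) and for 76.5% of the 11538 tested genes with reads in both groups.

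**Figure D4:**
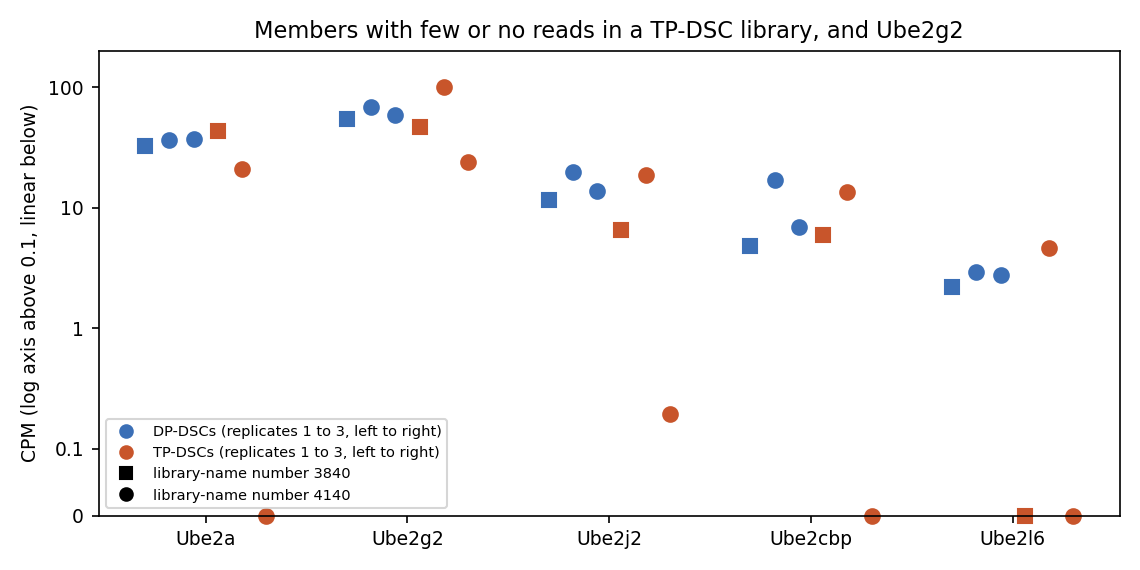
CPM of Ube2a, Ube2g2, Ube2j2, Ube2cbp and Ube2l6 in each library (vertical axis on a log scale above 0.1 and linear below). Blue points are DP-DSCs and orange points TP-DSCs, replicates 1 to 3 from left to right, squares carry the number 3840 and circles 4140. Points on the axis are libraries without reads, all of them TP-DSCs.

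Levels of different members were compared per length, as mean CPM over the 6 libraries per kilobase of the longest protein-coding transcript in GENCODE. On this scale Ube2m was highest at 100.3, and Ube2s stood at 85.8, Ube2d3 at 68.6, Ube2b at 63.5 and Ube2l3 at 60.6. Ube2c stood at 38.0 and Ube2t at 9.41. The lowest tested members were Ube2j2 at 3.36 and Ube2l6 at 1.34. Several E2 genes share sequence with near-identical copies or with overlapping genes, and so can gain or lose reads in counting. Stretches were matched on either strand, so an overlapping gene on the opposite strand counts as shared. No stretch of 50 bases of Ube2s, Ube2t, Ube2a, Ube2b or Ube2d1 was shared with a transcript of another gene. The share of such stretches that recur in another gene's transcripts was 17.8% for Ube2c (with the neighbouring Tnnc2 and with gene models of no known name), 16.5% for Ube2d3 and 16.2% for Ube2d2a. It was 91.2% for Ube2v1, shared with Gm20431 and other gene models. It was 58.9% for Ube2l3 (most with Ydjc) and 59% for Ube2e1 (most with Nkiras1). For Ube2h it was 46.3% and for Ube2q2 20.9%. Values of these genes are uncertain for that reason. For overlaps on the opposite strand this depends on the strand setting of the counting, which was not given.

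Related genes were grouped by their place around the E2s, and edgeR called 0 of them. Of 16 APC/C substrates all had a log2 fold change above 0, with a median of 0.65 against -0.02 for all genes tested. The list shares 2 genes with the cycling markers, and the median of the other 14 was also 0.65. The kinetochore protein Cenpf stood at 20.6, 22.6 and 20.8 CPM in DP-DSC libraries and 41.0, 105 and 114 CPM in TP-DSCs, with a log2 fold change of 1.98 ± 0.37 (SE; edgeR adjusted p = 0.121, DESeq2 adjusted p = 0.00148). The spindle motor Kif11 stood at 18.3, 40.6 and 24.1 CPM in DP-DSC libraries and 43.8, 114 and 53.8 CPM in TP-DSCs (log2 fold change 1.34 ± 0.43). Both were higher in every TP-DSC library than in every DP-DSC library. They were the only 2 of the 16 so placed, where 3.87% of all genes tested were. Gmnn and Plk1 had log2 fold changes of 0.88 and 0.68. These genes are regulated in the cell cycle themselves, and the larger pattern of mitotic genes in these data was known when the list was made.

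For the subunits of the APC/C the median log2 fold change was 0.16, and 9 of 14 lay above 0 and 5 below. Anapc15, a small subunit, had a log2 fold change of 0.77 ± 0.54 and the subunit Cdc16 one of -0.43 ± 0.26. Cdc26 and Anapc5 stood at 0.59 ± 0.39 and -0.40 ± 0.29 (log2 fold change ± SE). Among 6 activators and inhibitors the median was 0.34. Fbxo5, which inhibits the APC/C before mitosis, stood at 5.77, 9.73 and 10.5 CPM in DP-DSC libraries and 24.0, 31.7 and 12.9 CPM in TP-DSCs. It was higher in every TP-DSC library than in every DP-DSC library, as 1 of the 6 genes, where 3.87% of all genes tested were. Its log2 fold change was 1.40 ± 0.60 (edgeR adjusted p = 0.830). Bub1b, Mad2l1 and Bub3 had log2 fold changes of 0.46 ± 0.25, 0.64 ± 0.41 and -0.29 ± 0.30 (SE). The activator Cdc20 averaged 51.9 ± 17.6 CPM for DP-DSCs and 52.4 ± 6.82 CPM for TP-DSCs (SD, n = 3).

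Around Ube2t, the median of 13 Fanconi anemia genes was 0.53, with 9 above 0 and 4 below. Fancd2, which is ubiquitinated by Fancl with Ube2t, stood at 6.26, 15.2 and 10.8 CPM in DP-DSC libraries and 32.2, 32.8 and 27.9 CPM in TP-DSCs. Its libraries lay apart, with a log2 fold change of 1.54 ± 0.48 (edgeR adjusted p = 0.352, DESeq2 adjusted p = 0.131). Fance, a core complex subunit that contacts Fancd2, lay the other way. It stood at 30.0, 30.4 and 35.2 CPM in DP-DSC libraries and 10.3, 20.8 and 14.9 CPM in TP-DSCs. Its log2 fold change was -1.09 ± 0.41. Fancb had a log2 fold change of 1.31 ± 0.72 and the deubiquitinase Usp1, which reverses the Ube2t reaction, of 0.47 ± 0.31. Of the 13 genes, Fancd2 and Fancb were higher in every TP-DSC library than in every DP-DSC library, and Fance was lower. Of all genes tested, 3.87% were so placed above and 8.56% below. The ligase Fancl averaged 8.22 ± 2.52 and 14.1 ± 13.1 CPM.

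The other lists had medians from -0.03 to 0.22. The median log2 fold change was 0.09 for 10 E1 enzymes, 0.04 for 10 ubiquitin and ubiquitin-like genes and 0.22 for 8 E2-like genes with other symbols. It was 0.10 for 10 cullins and RING partners, 0.12 for 8 ligases of DNA damage signalling and -0.03 for 10 ER ligases and cofactors. Uba1, the main ubiquitin E1, stood at 471, 689 and 673 CPM in DP-DSC libraries and 520.4, 449 and 524 CPM in TP-DSCs. Cdc34, an E2 of cullin ligases, stood at 127, 173 and 125 CPM and at 128, 129 and 73.1 CPM. Birc6, of the same list, stood at 182, 248 and 130 CPM and at 194, 244 and 266 CPM, with a log2 fold change of 0.32 ± 0.23. Cul4a had a log2 fold change of -0.42 ± 0.20, Shprh of 0.61 ± 0.30 and Derl2 of -0.50 ± 0.26. Shprh, as 1 of the 8 ligases of its list, was higher in every TP-DSC library than in every DP-DSC library. Ufc1, as 1 of the 8 E2-like genes, was lower. Of all genes tested, 3.87% were so placed above and 8.56% below. Isg15, the cargo of Ube2l6, was too scarce to test, at 0.18 to 0.49 CPM in DP-DSCs, with no TP-DSC read. Its E1, Uba7, averaged 6.16 ± 1.23 and 12.2 ± 15.3 CPM, with the highest value in TP-DSCs replicate 2, the library that also held Ube2l6.

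**Figure D5:**
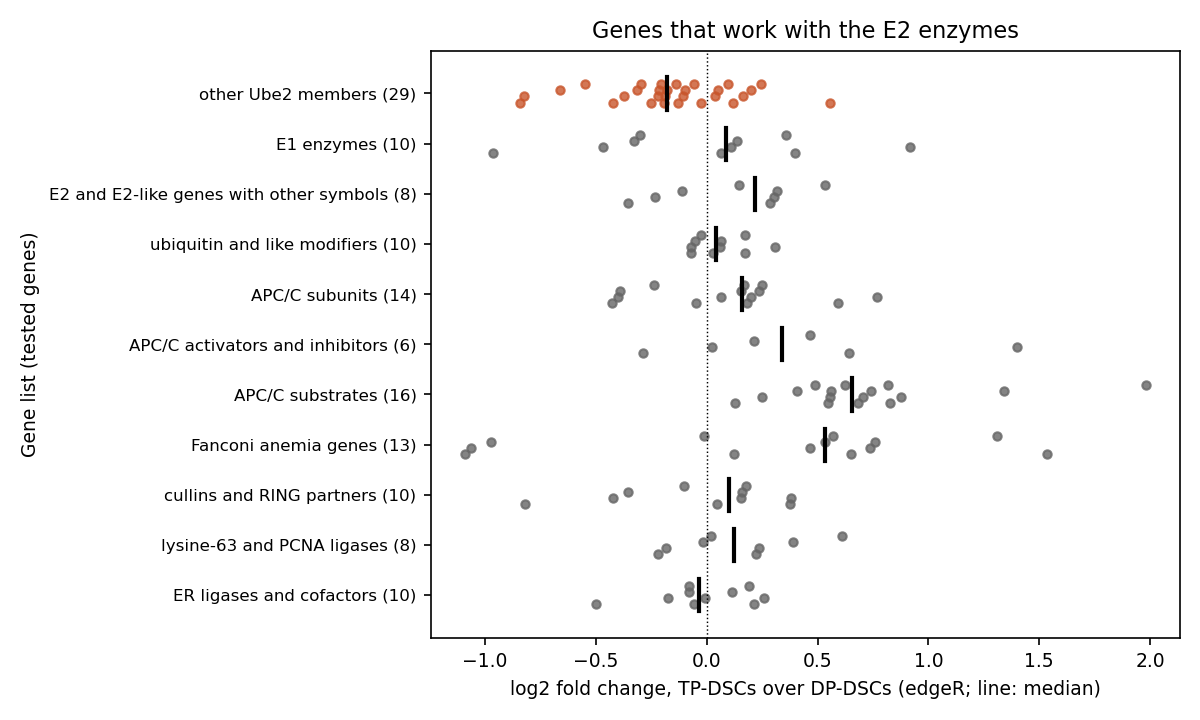
Log2 fold change of TP-DSCs over DP-DSCs (horizontal axis, edgeR) for the tested members other than Ube2c, Ube2s and Ube2t (orange) and for lists of related genes (grey, number of genes in brackets). Each point is a gene and each line a median. The medians run from -0.18 for the Ube2 members to 0.65 for the APC/C substrates.

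Each library-name number held both groups, so differences were also taken within each, as differences of mean log2 CPM. Ube2c differed by 1.08 in the single 3840 pair, which has no replicate check, and by 0.85 in the 4140 libraries. Ube2s differed by 0.53 and -0.32 and Ube2t by -0.01 and 1.57, in the same order. Ube2w differed by 0.89 and 0.36, Ube2r2 by 0.31 and 0.21 and Ube2d3 by -0.06 and -0.24. Ube2c, Ube2w and Ube2r2 thus lay above 0 in both, Ube2d3 below 0 in both, and Ube2s above 0 in one and below 0 in the other. Ube2t was level in the 3840 pair and higher in TP-DSCs in the 4140 libraries. A shared sign was not particular to these genes. Ube2d2a, Ube2k, Ube2m and Ube2o also lay above 0 in both. Ube2d1, Ube2e2, Ube2e3, Ube2f, Ube2g1, Ube2g2, Ube2h, Ube2j1, Ube2j2, Ube2l6, Ube2n and Ube2v1 also lay below 0 in both. The share over all genes is not given here.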

How the data were processed

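Per the labels' protocols, the 6 libraries were made from polyA-selected RNA with a stranded kit. Each deposited file gives the authors' raw counts of reads by gene symbol. The submitters' processing notes name STAR 2.7.3a, Partek and DESeq2 3.5 and the build mm10. The annotation, the strand setting and the role of each tool were not given in the sources used here. Rows for reads in no gene (14.1 to 20.3% of reads) and ambiguous reads (1.09 to 1.86%) were left out.

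CPM was computed over gene reads without a scaling factor. The filter filterByExpr (at least 10 reads, 15 in total) kept 11925 genes. They were TMM-scaled and compared between the groups by the quasi-likelihood F test of edgeR 4.0.16 (R 4.3.3), with p adjusted by Benjamini-Hochberg over these genes and a threshold of 0.05. Fold changes are TP-DSCs over DP-DSCs, and their SE is the size of the log2 value over the root of F. Differences within a library-name number and deviations by library use log2 CPM with a prior count of 2. The alternatives were DESeq2 1.42.0, limma-voom (limma 3.58.1), other scalings and filters, the library-name number as a block, 4140 libraries alone and each library left out. DESeq2 with its own filter was added after seeing the data. EdgeR and DESeq2 were also run on simulated data with known changes, which were larger than the edgeR fold change of any member. The outcome is not reported here.

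The members and lists were chosen with earlier results of these data known. Named genes are Ube2c, Ube2s and Ube2t, the 8 other members with the smallest p, the 6 with the highest level per length, members whose groups lie apart, close paralogs, and up to 4 genes per related list by p. One member that this rule names is counted in every total and median, but its own values are not reported here. Ube2a, Ube2g2, Ube2j2, Ube2cbp, Ube2l6, Cdc20, Fancl, Isg15 and Uba7 were singled out with their values in view, and so were the comparisons with cycling markers. The replicate numbers come from accession order and do not pair libraries. Replicates differed by a chi-square of 112.7 to 306.2 per degree of freedom, so no pair agreed within sampling noise. Transcript lengths and coordinates are from GENCODE M21 (GRCm38, the assembly of mm10).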

Additional observations from a re-analysis of the deposited data

How the results depend on the processing

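The count of called genes was 0 in edgeR, with 728 at an unadjusted p under 0.05, and 0 in limma-voom, with 961. DESeq2 called 93 genes (7 higher and 86 lower), or 267 with its own filter over all genes with reads (1.76% of those genes). No member was called under any alternative, and edgeR called 0 genes without each library in turn. Ube2c kept its direction in all 15 alternatives, from 0.62 without DP-DSCs replicate 1 to 1.26 without DP-DSCs replicate 2, with adjusted p from 0.121 to 1. The difference in medians between Ube2c, Ube2s and Ube2t and the other members was 0.94 to 1.06 under the alternatives that kept all libraries, 0.96 in the 4140 libraries and 0.49 to 1.03 without each library in turn. The cause of these moves was not tested. The median of all genes shifted to -0.16 without a filter and to -0.15 in limma-voom.

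Several members changed sign, most of them near 0 but also Ube2cbp (-0.55). Ube2q2 turned to 0.0036 over genes with reads in all 6 libraries, to 0.012 in limma-voom and to 0.11 in the 4140 libraries, where Ube2b, Ube2e1 and Ube2m turned to -0.11, -0.088 and -0.013. Without each library in turn the log2 fold change ranged from -0.078 to 0.22 for Ube2b, -0.12 to 0.14 for Ube2e1, -0.15 to 0.10 for Ube2q2, -1.55 to 0.082 for Ube2cbp, -0.59 to 0.10 for Ube2f and -0.41 to 0.13 for Ube2s. It ranged from -0.37 to 0.044 for Ube2e3, -0.17 to 0.051 for Ube2v1, -0.46 to 0.057 for Ube2z, -0.73 to 0.27 for Ube2g2 and -0.01 to 0.18 for Ube2o. The labels give no replicate numbers that pair libraries. With the library-name number as a block, edgeR called 0 genes and the difference in medians was 0.94.

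Members with a mean above 20 CPM had at least 204 reads in every library except Ube2a in TP-DSCs replicate 3. Ube2l6 had 0 to 96 reads. Its 0 in TP-DSCs replicate 1 allows up to 0.12 CPM, where the other 5 libraries averaged 2.5 CPM.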
